A study of Homo sapiens with 14 samples.

Results

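Readers of N6-methyladenosine (m6A), the methyl mark that is placed on adenosines of mRNA, were followed in Kasumi-1, an acute myeloid leukemia cell line with a translocation between chromosomes 8 and 21. The genes were chosen by name from a list of 10, made of IGF2BP1, IGF2BP2, IGF2BP3, YTHDF1, YTHDF2, YTHDF3, YTHDC1, YTHDC2, HNRNPA2B1 and HNRNPC. Of these, 9 were analysed, out of 16405 genes in the knockdown table and 12325 in the RB98# table, and all 9 passed the filter on low counts in both experiments. IGF2BP1 was not analysed here. In the knockdown experiment, cells took up an shRNA against RBPMS (shRBPMS, n = 3) or a scramble shRNA (shCtrl, n = 3) from a lentivirus over 48 h, with 48 h of puromycin selection after it. The RB98# experiment set cells treated with RB98# (n = 2), a compound given by code name alone, beside cells in DMSO (n = 2), without a stated dose or time. All groups are of the 1 cell line and carry its translocation. The labels do not say how many shRNA sequences were used or whether replicates were separate cultures, so p-values may measure technical spread only.

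A reader gives the m6A mark its effect by binding the marked mRNA. The IGF2BP proteins stabilise the mRNAs that they bind, the cytoplasmic YTHDF proteins are best known for speeding their decay, and YTHDC1 acts in the nucleus on splicing and export. IGF2BP1 and IGF2BP3 are oncofetal genes, active in the embryo, silent in most adult tissues and switched on again in many tumours, and they are repressed by the microRNA let-7, which the protein LIN28B keeps low in fetal blood cells. YTHDF2 is known as a factor that leukemia stem cells need. RBPMS, the gene that was knocked down, encodes an RNA-binding protein.

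Because let-7 is the known repressor of the IGF2BP family, its sequence and the places in the reference mRNAs that match it are shown for the IGF2BP members and for NRAS, a let-7 target that is described further on. Capitals mark the seed of let-7a (bases 2 to 8) and, in the mRNAs, the 7 letters CTACCTC that pair with it.
hsa-let-7a-5p: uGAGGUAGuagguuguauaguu
IGF2BP3 site: tttttactcaaCTACCTCaggtattcagt
IGF2BP2 site: cacagaagaagCTACCTCaggtgttttta
NRAS site: tctcagaataaCTACCTCctcacttggct
The mature let-7a sequence is that of RefSeq (GRCh38.p14, chr11:122146568-122146589, minus strand). The sites are from GENCODE v29 transcripts on GRCh38, all on the minus strand, at chr7:23311785-23311813 for IGF2BP3, chr3:185644210-185644238 for IGF2BP2 and chr1:114707891-114707919 for NRAS. The match begins at base 560 of the 2153 bases of the IGF2BP3 3' UTR and at base 1304 of the 1792 bases of the IGF2BP2 3' UTR. Only the transcript strand was searched.

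The search covered 19095 protein-coding genes, and 10.2% of them held at least 1 match in a 3' UTR. Among genes with a 3' UTR within 25% of the same length, 12.7% held a match for the length of IGF2BP3 and 12.1% for that of IGF2BP2. The unmeasured IGF2BP1 held 4 matches, IGF2BP2 and IGF2BP3 held 1 each, and 6 of the remaining members held 0. HNRNPA2B1 held 1 match in the transcript used and 0 in its transcripts with the longest 3' UTR or coding sequence. The transcript used for a gene was the one with the most matches, a rule taken up after the counts under the other choices had been seen. The 3 choices gave the same counts for the IGF2BP genes and NRAS, but HMGA2 held 4 matches under this one and 0 under both others, and LIN28B held 4, or 1 by the longest coding sequence. A match is a stretch of letters in the reference, and the level of let-7 was not analysed here.

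The knockdown libraries held 24.0 to 34.4 M counts each (M for 1e6), and the RB98# and DMSO libraries 13.9 to 15.3 M. By their labels, the knockdown libraries form a set with replicate 1 of each group (set 1) and a set with replicates 2 and 3 (set 2), and no label explains the sets. Mitochondrially encoded genes took 13.2% and 15.2% of the counts in the shRBPMS and shCtrl libraries of set 1, against 6.20% to 6.95% in set 2, so knockdown values are also given within the sets or from a fit blocked on the replicate number (the blocked fit). Because replicates 2 and 3 of a group were much alike, calls of the blocked fit were also checked after their counts had been summed to 1 library per group, with the set as a covariate (the summed fit), an alternative chosen after the data were seen. With 2 libraries per group and the set fitted too, p-values of the summed fit rest largely on a spread shared over all genes. RBPMS itself was at 2.53, 3.34 and 3.08 CPM (counts per 1e6, after TMM scaling) in shRBPMS libraries 1 to 3, against 20.4, 7.24 and 7.39 CPM in shCtrl libraries 1 to 3. The groups did not overlap, and the fall passed in the blocked fit (log2 fold change -1.79, edgeR adjusted p = 0.0106) and in the summed fit (edgeR adjusted p = 0.00321) but not without the block (-1.96, edgeR adjusted p = 0.0846). The 8 markers fixed for Kasumi-1 myeloblasts were all listed and summed to 15271 to 16696 CPM in shRBPMS, 14490 to 18129 CPM in shCtrl, 16345 to 17297 CPM in RB98# and 14696 to 14796 CPM in DMSO. The sums do not show single markers, of which TRH had a mean of 15.8 CPM in shRBPMS and 166 CPM in shCtrl (log2 fold change -3.39, edgeR adjusted p = 0.0336). Markers of other cell types summed to at most 65.4 CPM per list, which was EPCAM alone, and none of the 7 erythroid markers was analysed. The T cell list, of which 3 of 6 genes were listed, summed to 3.67 to 4.50 CPM in shRBPMS and 10.7 to 12.4 CPM in shCtrl. The megakaryocyte list was lower too, at 2.65 to 3.08 CPM in shRBPMS and 5.30 to 7.05 CPM in shCtrl, and the monocyte and macrophage list higher, at 5.90 to 7.34 CPM in shRBPMS and 3.88 to 5.68 CPM in shCtrl. With RB98# the B cell list summed to 8.66 to 12.6 CPM, against 14.2 to 15.02 CPM with DMSO, and the megakaryocyte list to 2.39 to 2.99 CPM, against 3.55 to 4.89 CPM with DMSO. The T cell and the monocyte and macrophage lists were slightly higher with RB98# and EPCAM slightly lower. The part of these markers in the results was not tested.

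**Figure D1:**
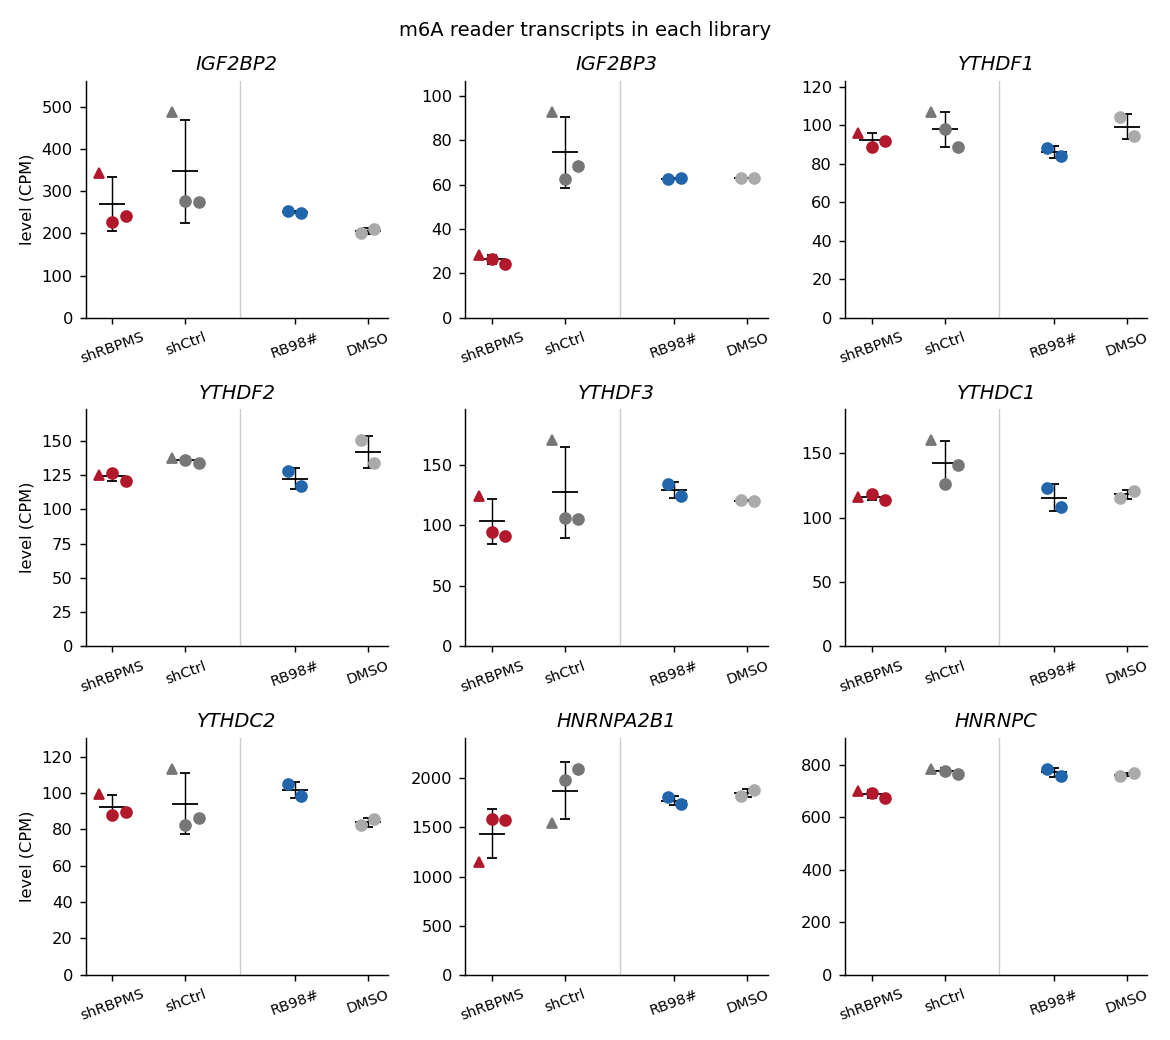
Level of each of the 9 readers in every library, in CPM on axes that start at 0, with shRBPMS left of shCtrl and RB98# left of DMSO. Triangles are the libraries of set 1 and circles all others, and the lines are the mean and SD of a group. IGF2BP3 is at 24.3 to 28.5 CPM in the shRBPMS libraries and at 62.4 to 92.9 CPM in the shCtrl libraries.

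IGF2BP3 fell after the knockdown of RBPMS. It was at 28.5, 26.4 and 24.3 CPM in shRBPMS libraries 1 to 3, against 92.9, 62.4 and 68.6 CPM in shCtrl libraries 1 to 3. All shRBPMS libraries lay far below all shCtrl libraries, and the highest level was that of shCtrl library 1. The raw counts behind these levels were 699, 751 and 679 in shRBPMS and 2084, 1741 and 2405 in shCtrl. The log2 fold change was -1.50 (SE 0.18, edgeR quasi-likelihood adjusted p = 0.0258), a level in shRBPMS of 0.354 times that in shCtrl. IGF2BP3 was the single reader of the 9 to pass in this fit, in which 1.97% of all genes passed and 1.34% passed as lower. Within set 1 its log2 ratio was -1.70 and within set 2 it was -1.37, so the fall was present in both sets. It also passed in the summed fit (-1.54, edgeR adjusted p = 0.000121).

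The size of this fall was steady and its call was not. Without any 1 library the log2 fold change stayed between -1.63 and -1.32. It passed without shCtrl library 1 (edgeR adjusted p = 0.0192) but not without shCtrl library 2 (edgeR adjusted p = 0.0974), shCtrl library 3 (0.0975), shRBPMS library 1 (0.0619), shRBPMS library 2 (0.156) or shRBPMS library 3 (0.147), fits in which at most 37 of all genes passed. In the authors' deposited table the log2 fold change of IGF2BP3 was -1.44 (adjusted p = 2.44e-12), and no other of the 9 readers passed 0.05 there. The design behind these deposited values was not known, so this p-value may not compare with those above.

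IGF2BP3 was nearly level between RB98# and DMSO. It was at 62.5 and 62.9 CPM in the RB98# libraries, against 62.9 and 63.2 CPM in the DMSO libraries. All 4 libraries lay within less than 1 CPM of each other. This gave a log2 fold change of -0.01, with a 95% interval of -0.17 to 0.15 (edgeR adjusted p = 0.946). A test of the difference between the effect of RB98# and that of the knockdown, over the 12126 genes in both tables, gave 1.48 on the log2 scale for IGF2BP3 (SE 0.24, 95% interval 0.94 to 2.02, edgeR adjusted p = 0.0106). IGF2BP3 was again the single reader to pass, and 8.15% of all genes passed, 4.79% with a positive and 3.36% with a negative difference. The difference stayed at 1.47 to 1.48 without any 1 library of the RB98# experiment but then missed the threshold, with edgeR adjusted p of 0.0675 without DMSO library 1, 0.0738 without DMSO library 2, 0.0624 without RB98# library 1 and 0.0517 without RB98# library 2.

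**Figure D2:**
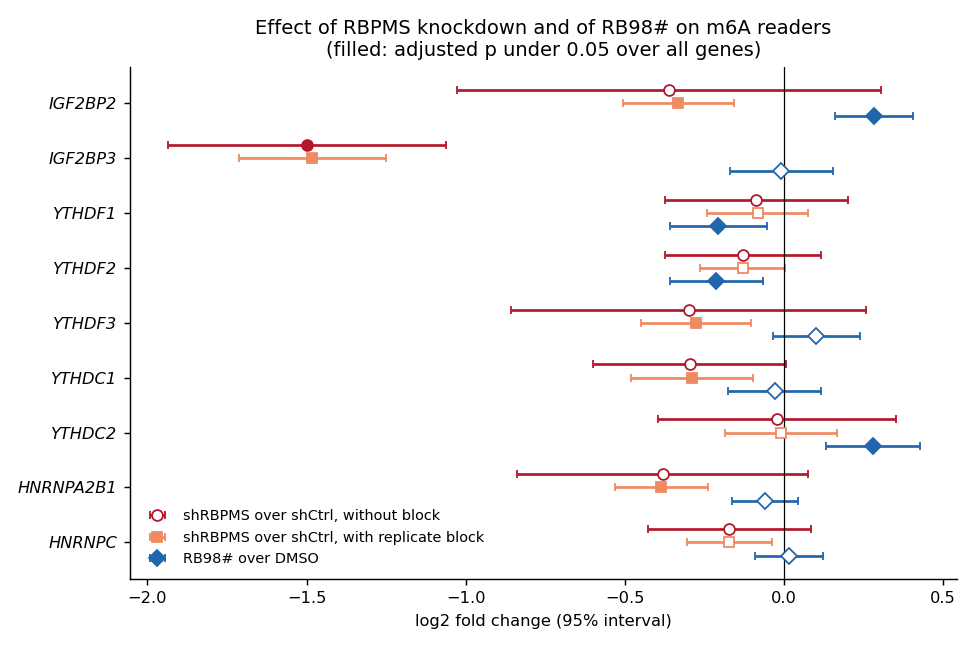
Log2 fold change of each reader after the knockdown, without and with the replicate block, and with RB98#, with 95% intervals. Filled symbols passed an adjusted p of 0.05 over all genes. IGF2BP3 stands apart at -1.50 after the knockdown and lies at -0.01 with RB98#.

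IGF2BP3 (ENSG00000136231) spans bases 23310209 to 23470467 of chromosome 7 (GRCh38, minus strand). Its exons share 1521 bp, 17.9% of their length, with MALSU1 on the opposite strand, and whether counting used the strand is not given in the sources used here. MALSU1, which encodes a factor of mitochondrial ribosome assembly, was at 31.9 ± 3.79 CPM in shRBPMS and 30.7 ± 2.19 CPM in shCtrl (SD, n = 3 each, log2 fold change 0.05, edgeR adjusted p = 0.919). It fell with RB98#, to 26.5 ± 0.819 CPM against 34.5 ± 0.899 CPM in DMSO (SD, n = 2 each, log2 fold change -0.38, edgeR adjusted p = 0.00334). MALSU1 was thus called in the experiment in which IGF2BP3 was not.

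The genes whose levels ran most like that of IGF2BP3 over the 6 knockdown libraries were ATP1B1 (Pearson's r = 0.999), ADGRD1 (0.998), DUSP22 (0.998), CENPK (0.997) and DLG5 (0.997), among 10605 genes. All 10605 were compared over the same libraries, in which a gene that is lower in shRBPMS than in shCtrl can give a high r through that alone. Of the 5, DUSP22 (log2 fold change -0.50, edgeR adjusted p = 0.0879) and CENPK (-0.43, edgeR adjusted p = 0.127) did not pass after the knockdown without the block. Over all 10 libraries, with each experiment centred on its own mean, the closest of 10295 genes were PAFAH1B2 (0.991), DHX40 (0.990), LEPROTL1 (0.989), TRH (0.988) and AEBP1 (0.988). Each of these last 5 genes was lower in shRBPMS than in shCtrl, with log2 fold changes of -0.77 for PAFAH1B2, -1.06 for DHX40, -1.42 for LEPROTL1, -3.39 for TRH and -1.35 for AEBP1. With RB98# the same 5 genes lay between -0.09 and 0.12. These genes were picked for following IGF2BP3 over the same 10 libraries. Their falls after the knockdown and near-level values with RB98# thus come with the choice.

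IGF2BP2 (ENSG00000073792), the family member that stays active in adult tissues, spans bases 185643739 to 185825056 of chromosome 3 (minus strand). It was at 344, 226 and 240 CPM in shRBPMS libraries 1 to 3, against 488, 277 and 275 CPM in shCtrl libraries 1 to 3. The groups overlapped, because library 1 was high in both, while each shRBPMS library lay below the shCtrl libraries of its own set. The log2 fold change was -0.36 without the block (SE 0.28, edgeR adjusted p = 0.612) and -0.33 in the blocked fit, where it passed (SE 0.07, edgeR adjusted p = 0.0166). The call was lost in the summed fit (-0.37, edgeR adjusted p = 0.0748), and the value without the block was -0.05 without shCtrl library 1 and -0.57 without shRBPMS library 1.

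IGF2BP2 rose with RB98#. It was at 253 and 248 CPM in the RB98# libraries, against 201 and 211 CPM in the DMSO libraries. Both RB98# libraries lay above both DMSO libraries. This was a log2 fold change of 0.28 (SE 0.06, edgeR adjusted p = 0.00054), and without DMSO library 1 it was 0.25 and missed the threshold (edgeR adjusted p = 0.0771). The difference between the effects of RB98# and of the knockdown was 0.63 without the block (edgeR adjusted p = 0.360) and 0.60 with it (edgeR adjusted p = 0.0014). The blocked test of the difference passed for 4 readers, IGF2BP2, IGF2BP3, YTHDF3 and HNRNPA2B1, all with a positive difference, and for 40.8% of all genes, 20.7% with a positive and 20.1% with a negative difference. The summed fit of the difference called the same 4 readers, and 4530 of all 12126 genes passed in it.

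The share of IGF2BP3 in the summed counts of IGF2BP2 and IGF2BP3 does not depend on how libraries are scaled. IGF2BP3 made up 7.66%, 10.5% and 9.18% of these counts in shRBPMS libraries 1 to 3, against 16.0%, 18.4% and 19.97% in shCtrl libraries 1 to 3. The shares did not overlap, and the means differed by -9.01 percentage points (shRBPMS minus shCtrl, two-sided exact permutation p = 0.1, the smallest that 3 against 3 libraries can give). With RB98# the share was 19.8% and 20.2%, against 23.8% and 23.0% with DMSO. Both RB98# shares were below both DMSO shares, with a difference of -3.43 points (RB98# minus DMSO, two-sided exact permutation p = 0.333, the smallest that 2 against 2 can give). In shRBPMS the lower share went with a lower level of IGF2BP3, and in RB98# with a higher level of IGF2BP2. Per length of transcript, the difference in the share of IGF2BP3 was -6.26 points for shRBPMS minus shCtrl and -2.54 points for RB98# minus DMSO.

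**Figure D3:**
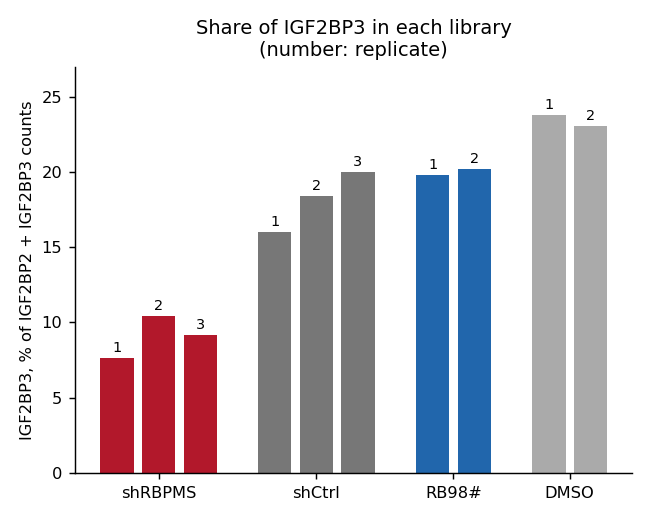
Share of IGF2BP3 in the summed raw counts of IGF2BP2 and IGF2BP3, in percent, as 1 bar per library numbered by replicate, with shRBPMS left of shCtrl and RB98# left of DMSO. The shRBPMS bars stand between 7.66% and 10.5%, below every other bar.

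The other 7 readers, in the YTH and HNRNP families, all changed less after the knockdown than IGF2BP3 did. After the knockdown none of them passed without the block, in edgeR at an unadjusted p of 0.05 or in DESeq2. In the blocked fit YTHDF3, YTHDC1 and HNRNPA2B1 passed as lower, which with IGF2BP2 and IGF2BP3 made 5 of the 9 readers lower and 0 higher, in a fit in which 28.1% of all genes passed, 14.8% as lower and 13.3% as higher. The summed fit called IGF2BP3 alone of the 9, in which 16.4% of all genes passed, 8.62% as lower and 7.73% as higher. All 9 readers had a negative log2 fold change in both fits, with a median of -0.30 without the block and -0.28 with it, against 0.02 over all genes in each. For 4 of the 9 (IGF2BP3, YTHDF2, YTHDC1 and HNRNPC) no shRBPMS library reached the lowest shCtrl library, which held for 13.6% of all genes, among 25.9% that did not overlap in either direction.

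RB98# gave another set of calls. IGF2BP2 and YTHDC2 passed as higher and YTHDF1 and YTHDF2 as lower, 4 of the 9 readers, in a fit in which 37.8% of all genes passed, 20.5% as higher and 17.3% as lower. Groups did not overlap for 3 readers that were higher (IGF2BP2, YTHDF3 and YTHDC2) and 4 that were lower (IGF2BP3, YTHDF1, YTHDF2 and HNRNPA2B1), against 34.3% and 34% of all genes (68.3% in either direction). Scaling by library totals alone lowered the median log2 fold change of all genes to -0.10 and turned the split of calls over all genes to 1690 higher and 3276 lower, against 2530 and 2129 with TMM. Under that scaling YTHDC2 missed the threshold (0.18, edgeR adjusted p = 0.0504) and HNRNPA2B1 passed as lower (-0.16, edgeR adjusted p = 0.0135), while IGF2BP3 did not pass (-0.11, edgeR adjusted p = 0.272).

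YTHDF1 (ENSG00000149658; chromosome 20, 63195429 to 63216234, minus strand) is a cytoplasmic reader linked to translation. It was at 96.3, 88.9 and 91.8 CPM in shRBPMS, against 107, 98.2 and 88.8 CPM in shCtrl. The groups overlapped (log2 fold change -0.09, SE 0.12, edgeR adjusted p = 0.819). With RB98# it was at 88.3 and 83.9 CPM, against 104 and 94.7 CPM with DMSO. Both RB98# libraries were lower, with a log2 fold change of -0.21 (SE 0.07, edgeR adjusted p = 0.0289). The call was lost in DESeq2 (adjusted p = 0.0791) and without DMSO library 1 (-0.14, edgeR adjusted p = 0.440), DMSO library 2 (0.0770) or RB98# library 2 (0.0509).

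YTHDF2 (ENSG00000198492; chromosome 1, 28736621 to 28769775, plus strand) brings bound mRNAs to the CCR4-NOT deadenylase for decay. It was at 125, 127 and 121 CPM in shRBPMS, against 138, 137 and 134 CPM in shCtrl. The shRBPMS libraries were all slightly below the shCtrl libraries, and the log2 fold change of -0.13 did not pass (SE 0.10, edgeR adjusted p = 0.623, and 0.131 with the block). With RB98# it was at 128 and 117 CPM, against 151 and 134 CPM with DMSO. Again both treated libraries lay below both controls, and here the fall passed (log2 fold change -0.21, SE 0.07, edgeR adjusted p = 0.0202). It did not pass in DESeq2 (adjusted p = 0.0541), without DMSO library 1 (-0.13, edgeR adjusted p = 0.452) or without RB98# library 2 (-0.15, 0.0589). The effects of RB98# and of the knockdown on YTHDF2 differed by -0.10 (95% interval -0.41 to 0.21, edgeR adjusted p = 0.729), so YTHDF2 was not shown to respond differently in the 2 experiments.

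YTHDF3 (ENSG00000185728; chromosome 8, 63168553 to 63212786, plus strand) works with both other YTHDF proteins. It was at 125, 94.3 and 91.3 CPM in shRBPMS, against 171, 106 and 105 CPM in shCtrl. As for IGF2BP2, library 1 was the highest of each group and the groups overlapped, while each shRBPMS library lay below the shCtrl libraries of its set. Without the block the log2 fold change was -0.30 (SE 0.23, edgeR adjusted p = 0.618) and -0.28 in the blocked fit, where it passed (SE 0.07, edgeR adjusted p = 0.0310). The summed fit did not call it (-0.32, edgeR adjusted p = 0.122), and the value without the block was -0.05 without shCtrl library 1 and -0.46 without shRBPMS library 1. With RB98# it was at 134 and 125 CPM, against 121 and 120 CPM with DMSO, which were slightly higher levels that did not pass (0.10, SE 0.07, edgeR adjusted p = 0.239). In the blocked fit the difference between the effects was 0.36 (edgeR adjusted p = 0.0230).

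Per length of transcript, the YTHDF trio kept 1 order in every library, with YTHDF2 first, YTHDF1 after it and YTHDF3 last. YTHDF2 made up 40.03% to 44.1% of the trio in shRBPMS and 37.7% to 44.5% in shCtrl, and 40.3% to 41.1% in RB98# and 42.3% to 43.6% in DMSO. The share of YTHDF3 was 26.0% in both RB98# libraries, against 21.2% and 23.0% in the DMSO libraries. It was 24.1%, 19.9% and 19.6% in shRBPMS, against 28.3%, 20.4% and 21.2% in shCtrl, so library 1 had the highest share in both groups.

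YTHDC1 (ENSG00000083896; chromosome 4, 68310387 to 68350089, minus strand) is the nuclear YTH reader. It was at 116, 118 and 113 CPM in shRBPMS, against 160, 126 and 141 CPM in shCtrl. No shRBPMS library reached a shCtrl library, and the shRBPMS libraries lay closer together. This gave a log2 fold change of -0.30 without the block (SE 0.13, edgeR adjusted p = 0.306) and -0.29 in the blocked fit, where it passed (SE 0.08, edgeR adjusted p = 0.0362), but it did not pass in the summed fit (-0.34, edgeR adjusted p = 0.0997). With RB98# it was at 123 and 108 CPM, against 115 and 121 CPM with DMSO, and the groups overlapped (-0.03, SE 0.07, edgeR adjusted p = 0.779).

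YTHDC2 (ENSG00000047188; chromosome 5, 113513683 to 113595285, plus strand) is an RNA helicase that germ cells of the mouse need to enter meiosis. It was at 99.6, 88.2 and 89.8 CPM in shRBPMS, against 113, 82.4 and 86.4 CPM in shCtrl. The groups overlapped, shRBPMS being lower in set 1 and higher in set 2, and the log2 fold change of -0.02 turned to 0.01 when libraries were scaled by their totals alone (edgeR adjusted p = 0.973 and 0.983). With RB98# it was at 105 and 98.5 CPM, against 82.2 and 85.5 CPM with DMSO. Both RB98# libraries were clearly higher, with a log2 fold change of 0.28 (SE 0.07, edgeR adjusted p = 0.00326), though it missed the threshold without DMSO library 1 (0.25, edgeR adjusted p = 0.108). The authors' deposited table gave 0.28 for YTHDC2 (adjusted p = 0.0208) and 0.28 for IGF2BP2 (adjusted p = 0.000388) with RB98#, and no other reader passed 0.05 there.

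HNRNPA2B1 (ENSG00000122566; chromosome 7, 26173057 to 26201529, minus strand) is a nuclear RNA-binding protein with roles in splicing and in microRNA processing. It was at 1149, 1589 and 1578 CPM in shRBPMS, against 1543, 1982 and 2098 CPM in shCtrl. In both groups library 1 was the lowest, and the groups overlapped only through shCtrl library 1. The log2 fold change was -0.38 without the block (SE 0.19, edgeR adjusted p = 0.389) and -0.39 in the blocked fit, where it passed (SE 0.06, edgeR adjusted p = 0.00519). In the summed fit it was -0.40 and missed the threshold (edgeR adjusted p = 0.0605), and the value without the block was -0.24 without shRBPMS library 1. Its exons share 368 bp, 3.97% of their length, with CBX3 on the opposite strand, which in the blocked fit was also lower (-0.49, edgeR adjusted p = 0.00182). With RB98# HNRNPA2B1 was at 1808 and 1742 CPM, against 1819 and 1879 CPM with DMSO, and the slightly lower levels did not pass (-0.06, SE 0.05, edgeR adjusted p = 0.377). The difference between the effects was 0.31 in the blocked fit (edgeR adjusted p = 0.0109).

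HNRNPC (ENSG00000092199; chromosome 14, 21209136 to 21269494, minus strand) binds uridine tracts that m6A can expose in a folded RNA. It was at 700, 691 and 672 CPM in shRBPMS, against 784, 777 and 763 CPM in shCtrl. The groups were apart and each was tight, but the log2 fold change of -0.17 did not pass (SE 0.11, edgeR adjusted p = 0.508, and 0.0616 with the block). With RB98# it was at 783 and 757 CPM, against 757 and 767 CPM with DMSO. These groups overlapped, and the log2 fold change was 0.02 with TMM and -0.09 by library totals alone (edgeR adjusted p = 0.843 and 0.193). HNRNPC has 9 named pseudogenes in GENCODE v29, and YTHDF1 and YTHDF2 have 1 each, so reads could have been split between near-identical copies.

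Levels of different readers can be compared only per length of transcript, for which the deposited FPKM values (fragments per kilobase and per 1e6) of the RB98# experiment were used. HNRNPA2B1 was highest, at 138 and 133 FPKM in RB98# and 149 and 154 FPKM in DMSO. HNRNPC followed with 103 and 100.2 FPKM in RB98# and 107 and 109 FPKM in DMSO. IGF2BP2 was the highest of the readers outside the HNRNP family in RB98#, at 45.7 and 45.0 FPKM, and was at 39.0 and 41.0 FPKM in DMSO. At the other end, IGF2BP3 was the lowest of all, at 7.05 and 7.11 FPKM in RB98# and 7.61 and 7.67 FPKM in DMSO, just below YTHDC2 with 9.34 and 8.80 FPKM in RB98# and 7.84 and 8.20 FPKM in DMSO.

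Neighbours in this order were apart in every pair in RB98#, while in DMSO IGF2BP2 and YTHDF2 (41.6 and 37.3 FPKM) overlapped. FPKM values rest on library totals, not on TMM. The length that the authors' FPKM implies for HNRNPA2B1 is 12635 bp, against 9267 bp of exons in GENCODE v29, a shorter length that would raise its value per kilobase. With the same implied lengths, the knockdown libraries placed IGF2BP3 last in shRBPMS, at 3.09 ± 0.246 CPM per kilobase, below YTHDC2 at 8.55 ± 0.574 CPM per kilobase. In shCtrl, IGF2BP3 at 8.73 ± 1.88 and YTHDC2 at 8.69 ± 1.56 CPM per kilobase were not apart (SD, n = 3 each).

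**Figure D4:**
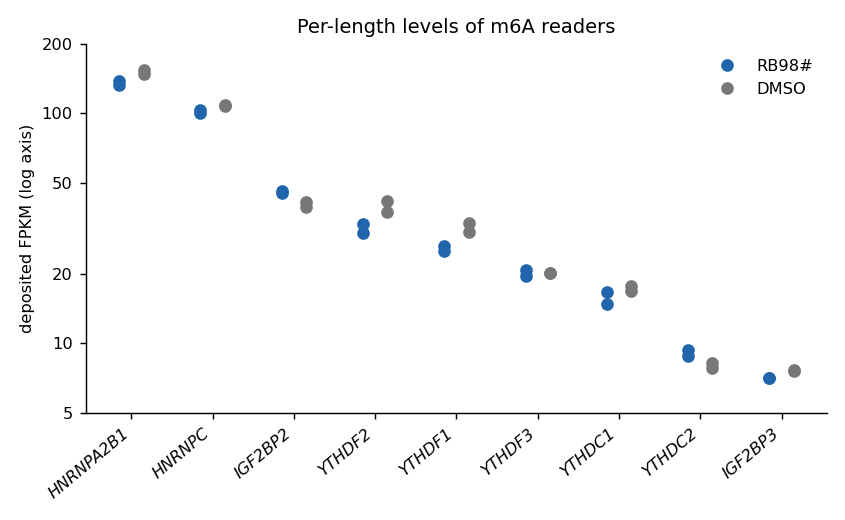
Deposited FPKM of the 9 readers in the 2 RB98# and the 2 DMSO libraries, on a log axis, from the highest reader at the left to the lowest at the right. HNRNPA2B1 lies above 130 FPKM and IGF2BP3 between 7.05 and 7.67 FPKM.

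Genes around let-7 and LIN28, most of them oncofetal genes like IGF2BP3 or let-7 targets, were described next, from a list of 14 of which 12 were tested. After the knockdown 2 of the 12 fell without the block, NRAS and HMGA2, and 0 rose, where 1.34% of all genes fell and 0.629% rose. In the blocked fit 8 fell and 0 rose, where 14.8% of all genes fell, and in the summed fit 7 fell and 0 rose, where 8.62% fell. The list had a median log2 fold change of -0.44 without the block and -0.43 with it, against 0.02 over all genes in each fit. NRAS, a RAS GTPase, was at 61.3 ± 10.6 CPM in shRBPMS and 175 ± 62.3 CPM in shCtrl (SD, n = 3 each), a log2 fold change of -1.52 (edgeR adjusted p = 0.0466). HMGA2, an oncofetal chromatin protein, was at 46.3 ± 3.34 CPM in shRBPMS and 99.7 ± 24.2 CPM in shCtrl, a log2 fold change of -1.11 (edgeR adjusted p = 0.0438). Neither NRAS nor HMGA2 passed without shCtrl library 2 or 3 or any 1 shRBPMS library, with edgeR adjusted p of 0.0840 to 0.219 for NRAS and 0.0910 to 0.212 for HMGA2.

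TRIM71, a stem cell ubiquitin ligase that held 6 matches to the let-7 seed, was at 134 ± 49.8 CPM in shRBPMS and 314 ± 52.9 CPM in shCtrl and passed in the blocked fit (-1.29, edgeR adjusted p = 0.00105) but not without the block (-1.22, edgeR adjusted p = 0.101). LIN28B itself, which blocks the maturation of let-7, fell in the blocked fit (-0.41, edgeR adjusted p = 0.0175), as did HMGA1 (-0.51), CDC25A (-0.44), DICER1 (-0.44) and IGF1R (-0.34), of which IGF1R did not pass in the summed fit (edgeR adjusted p = 0.0642). CDC34, MYCN, MYC and ARID3A did not pass in either fit, and lay between -0.19 and 0.15. Of these 4, ARID3A held 2 matches to the let-7 seed, CDC34 held 1, and MYC and MYCN held 0. Among the genes that fell, CDC25A and IGF1R held 2 each, HMGA1 held 1 and DICER1 held 0. Whether matches go with the changes was not tested. The list was chosen with results of these libraries known, so its counts are a description.

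With RB98# 5 of the 12 fell and 1 rose, where 17.3% of all genes fell and 20.5% rose, and the list's median was -0.11 against 0.00 over all genes. MYC was at 276 ± 7.60 CPM with RB98# and 390 ± 1.41 CPM with DMSO (SD, n = 2 each, log2 fold change -0.50, edgeR adjusted p = 1.87e-07). LIN28B was at 35.7 ± 1.40 CPM with RB98# and 49.4 ± 3.36 CPM with DMSO (-0.47, edgeR adjusted p = 0.000283), and ARID3A, a DNA-binding protein of blood cell development, was at 63.9 ± 1.28 CPM with RB98# and 49.1 ± 1.97 CPM with DMSO (0.38, edgeR adjusted p = 0.000805). NRAS, like IGF2BP3, stayed level with RB98# (-0.01, edgeR adjusted p = 0.945). Without the block, NRAS was the single gene of the list whose effects differed between the experiments. The difference was 1.496 on the log2 scale (SE 0.36, edgeR adjusted p = 0.0412). The summed fit of the difference called 5 genes of the list as positive (NRAS, HMGA2, TRIM71, HMGA1 and IGF1R) and 1 as negative (MYC). In that fit 4530 of all 12126 genes passed.

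**Figure D5:**
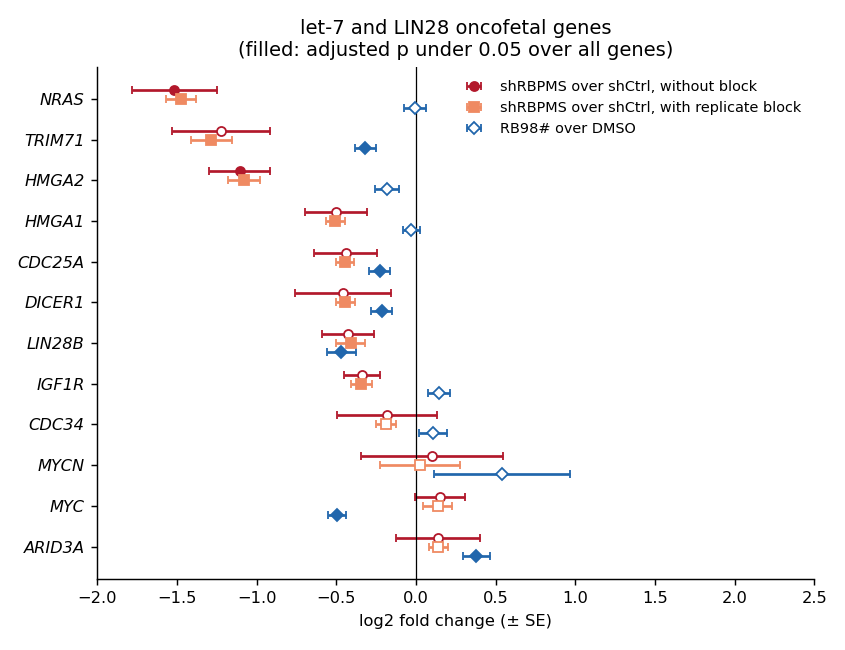
Log2 fold change, with its SE, of the 12 tested genes of the let-7 and LIN28 list after the knockdown, without and with the replicate block, and with RB98#. Filled symbols passed an adjusted p of 0.05 over all genes. NRAS, TRIM71 and HMGA2 lie at -1.52, -1.22 and -1.11 after the knockdown without the block, and at -0.01, -0.32 and -0.18 with RB98#.

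Among mRNAs known to be bound by IGF2BP proteins, 15 of 18 were tested in each experiment. The 15 were not the same, as CCND1 was tested only after the knockdown and ABCB1 only with RB98#. After the knockdown 0 passed in edgeR without the block (2 at an unadjusted p of 0.05, and 1 in DESeq2), while the blocked fit called 1 up and 5 down, where 13.3% and 14.8% of all genes passed, and the summed fit called 0 up and 2 down (FOXM1 and SRF). The list had a median of -0.18 without the block and -0.19 with it. FOXM1, a transcription factor of cell division, was at 79.8 ± 12.3 CPM in shRBPMS and 144 ± 37.7 CPM in shCtrl (blocked -0.83, edgeR adjusted p = 0.000933). SRF, the factor that drives actin genes, was at 59.4 ± 7.70 CPM in shRBPMS and 85.4 ± 12.5 CPM in shCtrl (blocked -0.52, edgeR adjusted p = 0.0023), and CDK6 was called in the blocked fit (-0.37, edgeR adjusted p = 0.00457) but not in the summed fit (edgeR adjusted p = 0.0666).

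With RB98# the same list held 8 genes of 15 that rose and 2 that fell, where 20.5% of all genes rose and 17.3% fell, with a median of 0.20 against 0.00 over all genes. SRF, lower after the knockdown, rose to 264 ± 4.09 CPM with RB98#, against 79.6 ± 1.80 CPM with DMSO (1.73, edgeR adjusted p = 1.3e-16). ACTB, which encodes beta-actin and whose mRNA is the best known target of the IGF2BP1 protein of the chicken, rose to 9799 ± 112 CPM with RB98#, against 4774 ± 221 CPM with DMSO (1.04, edgeR adjusted p = 1.53e-14). ABCB1, a drug efflux pump, was at 4.89 ± 0.260 CPM with RB98# and 2.11 ± 0.660 CPM with DMSO (1.20, edgeR adjusted p = 0.00203).

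The m6A writers with their partner proteins, the erasers and related methyltransferases numbered 14, all tested. None passed after the knockdown in edgeR without the block (0 also at an unadjusted p of 0.05 and in DESeq2), and 4 rose and 0 fell in the blocked fit, led by the eraser ALKBH5, which was at 54.4 ± 6.01 CPM in shRBPMS and 41.3 ± 6.65 CPM in shCtrl (0.40, edgeR adjusted p = 0.00739), the eraser FTO (0.35, edgeR adjusted p = 0.0146) and METTL5, which methylates ribosomal RNA (0.23, edgeR adjusted p = 0.0467). These 4 of 14 compare with 13.3% of all genes that rose there. The summed fit called ALKBH5 alone (edgeR adjusted p = 0.0400), with FTO at 0.0739 and METTL5 at 0.275. With RB98# 3 of 14 rose and 0 fell, where 20.5% of all genes rose, so the share that rose was near that of all genes. RBM15, which guides the writer complex to its mRNAs, was at 47.3 ± 2.95 CPM with RB98# and 29.5 ± 1.90 CPM with DMSO (0.68, edgeR adjusted p = 4.68e-06). ZC3H13, a subunit of the writer complex, gave 0.29 (edgeR adjusted p = 0.0012) and FTO 0.31 (edgeR adjusted p = 0.0184). The list's median was 0.01 in both knockdown fits, against 0.02 over all genes, and 0.11 with RB98#, against 0.00 over all genes. FTO did not pass with RB98# without DMSO library 1 (0.25) or 2 (0.37), without RB98# library 2 (0.20), by library totals (0.21) or in DESeq2 (0.31), and ZC3H13 did not pass without DMSO library 1 (0.26, edgeR adjusted p = 0.0612).

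Of other proteins that have been proposed to bind m6A, 13 were tested after the knockdown and 12 with RB98#. In edgeR without the block 0 passed (1 at an unadjusted p of 0.05, and 1 in DESeq2), and in the blocked fit 2 rose and 4 fell, where 13.3% of all genes rose and 14.8% fell. PRRC2C, a stress granule protein, was at 295 ± 63.9 CPM in shRBPMS and 588 ± 233 CPM in shCtrl (blocked -0.95, edgeR adjusted p = 0.000967). RBMX, a splicing regulator, gave -0.29 in the blocked fit (edgeR adjusted p = 0.0188), and SND1, a nuclease and coactivator, gave 0.26 (edgeR adjusted p = 0.0313). Of the list, the summed fit called PRRC2C alone (edgeR adjusted p = 0.00103), with RBMX at 0.108 and SND1 at 0.121. With RB98# 3 of 12 rose and 1 fell, where 20.5% of all genes rose and 17.3% fell, with FXR1 at 0.40 (edgeR adjusted p = 6.01e-05), SND1 at 0.30 (edgeR adjusted p = 0.000278) and RBMX at -0.22 (edgeR adjusted p = 0.0038). RBMX did not pass without DMSO library 1 (edgeR adjusted p = 0.113) or 2 (0.0892). The list's median was -0.14 after the knockdown without the block and -0.13 with it, and 0.10 with RB98#.

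Subunits of the CCR4-NOT deadenylase, its partners and other mRNA decay factors numbered 20, all tested. The list was not limited to direct partners of YTHDF2 and YTHDC2. Without the block 0 passed after the knockdown in edgeR (1 at an unadjusted p of 0.05, and 1 in DESeq2), while the blocked fit called 1 up and 2 down, where 13.3% and 14.8% of all genes passed, with CNOT9, a subunit of CCR4-NOT, at 46.6 ± 3.74 CPM in shRBPMS and 68.4 ± 5.29 CPM in shCtrl (blocked -0.55, edgeR adjusted p = 0.00157), TOB1 at -0.33 (edgeR adjusted p = 0.0434) and CNOT11 at 0.26 (edgeR adjusted p = 0.0220). The summed fit called CNOT9 alone (edgeR adjusted p = 0.0125), with TOB1 at 0.0821 and CNOT11 at 0.208. With RB98# 10 of 20 rose and 1 fell, where 20.5% of all genes rose and 17.3% fell. BTG2, an antiproliferative partner of the deadenylase, was at 5.27 ± 0.170 CPM with RB98# and 0.985 ± 0.151 CPM with DMSO (2.42, edgeR adjusted p = 2.36e-06). BTG1, of the same family, was at 41.2 ± 4.60 CPM with RB98# and 20.5 ± 1.27 CPM with DMSO (1.01, edgeR adjusted p = 5.76e-08). The decapping factor DCP1A was at 85.4 ± 2.66 CPM with RB98# and 45.9 ± 1.45 CPM with DMSO (0.89, edgeR adjusted p = 3.48e-09). The list's median was 0.26 with RB98# against 0.00 over all genes, and -0.13 after the knockdown without the block and -0.09 with it.

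The nuclear partners of YTHDC1 were 9, all tested, and all had a negative log2 fold change after the knockdown, with a median of -0.16 in both fits. Of these 0 passed in edgeR without the block (0 also at an unadjusted p of 0.05 and in DESeq2) and 3 fell in the blocked fit, SAFB (-0.26, edgeR adjusted p = 0.0449), the splicing factor SRSF10 (-0.25, edgeR adjusted p = 0.0345) and the polyadenylation factor CPSF6 (-0.24, edgeR adjusted p = 0.0224), where 14.8% of all genes fell. In the summed fit 0 passed, with edgeR adjusted p of 0.148 for SAFB, 0.159 for SRSF10 and 0.187 for CPSF6. With RB98# 4 of 9 rose and 3 fell, where 20.5% of all genes rose and 17.3% fell, and the median was -0.12. NXF1, the main mRNA export receptor, was at 223 ± 14.98 CPM with RB98# and 115 ± 1.73 CPM with DMSO (0.95, edgeR adjusted p = 2.39e-11). SRSF7, a splicing and export adaptor, was at 299.6 ± 4.16 CPM with RB98# and 457 ± 3.21 CPM with DMSO (-0.61, edgeR adjusted p = 4.87e-09), and SAFB2 gave 0.54 (edgeR adjusted p = 1.07e-06).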

How the data were processed

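RNA-seq of Kasumi-1 was analysed from 10 libraries, and 4 other samples of the series, of RIP-seq and m6A-seq, were not analysed here. Tools listed in the submitters' processing notes, with no role for any of them, are DESeq2 1.32.0, featureCounts 2.0.1, StringTie, HISAT2 2.2.1, fastp 0.22.0, MACS2 2.2.6 and deepTools 3.5.1. The build is hg38 (GRCh38). Per the file headers, the columns used hold raw counts per gene, deposited without normalisation. The FPKM columns of the RB98# table, deposited by the authors, carry no unit in the header. They were taken as FPKM because count over value and library total gave the GENCODE v29 exon length within 5% for 77.7% of 7802 genes. The deposited log2 fold changes and p-values are the authors' own, with the header names of a DESeq2 table, and are quoted only under that name. Left out were 6 per-library columns of adjusted signal, in the knockdown table, and 112 repeated lines of the RB98# table.

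Each experiment was fitted alone with edgeR 4.0.16 on R 4.3.3 (quasi-likelihood F test, two-sided, TMM factors, filterByExpr with a count of 10 and a total of 15, group alone as the design) and Benjamini-Hochberg adjustment over all genes at 0.05. The difference of effects is a contrast of the 4 groups, fitted over all 10 libraries. Scripts were tested on simulated counts that held no difference between the label sets. How the fits handle such a difference was not simulated. Alternatives were the replicate block, the label set as a covariate, other scaling, no filter, DESeq2 1.42.0 and each library left out, and, added after the data were seen, set 2 alone and replicates 2 and 3 summed.

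Same-numbered knockdown libraries deviated together over 10606 genes (correlations of 0.852, 0.772 and 0.800), so the numbers were taken to pair them, although replicate 2 against replicate 3 gave 0.767 and 0.776, so that the pairing follows the label set. Between replicates 2 and 3 the chi-square per degree of freedom was 3.03 in shRBPMS and 3.01 in shCtrl, against 133 to 215 between replicate 1 and the others of its group. Replicates 2 and 3 thus differed by more than counting noise and were counted as separate samples, as labelled, which does not show that they were separate cultures.

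The named genes are the members, RBPMS, up to 3 genes per list and comparison with the largest change past 0.05, and the 5 genes closest to IGF2BP3 per correlation, where the mean log2 CPM was at least 2. HMGA1, CDC25A, DICER1, IGF1R, LIN28B and the genes of the let-7 list that did not pass were named after their values were seen, as were MALSU1 and CBX3. Of the let-7 list, 1 gene is not reported here, and the list's counts and medians leave it out. The members, lists and tests were chosen with earlier results of these data known.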

Additional observations from a re-analysis of the deposited data

Results flagged for a closer look

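The effects on IGF2BP3 in the 2 experiments differed by 1.48 on the log2 scale (RB98# over DMSO minus shRBPMS over shCtrl, SE 0.24, edgeR adjusted p = 0.0106). This is a tested difference of the same kind of contrast between experiments, and it had the same direction in all fits that left out 1 library, with values of 1.28 to 1.59. RB98# treatment and shRNA infection also differ in agent, and the time of the RB98# treatment is not given, so the part of these in the difference cannot be told apart.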

How the results depend on the processing

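Over all genes, the knockdown called 320 genes without the block, 4549 with the replicate block, 5810 with the label set as a covariate, 1339 in DESeq2, 6830 in set 2 alone and 2681 with replicates 2 and 3 summed, and 0 to 322 without 1 library. In the fits with 0 calls, the genes at an unadjusted edgeR p under 0.05 were 2010 without shCtrl library 3, 1866 without shRBPMS library 2 and 2002 without shRBPMS library 3. The difference of effects gave 4951 calls with the replicate block, 4530 with replicates 2 and 3 summed and 988 without the block, and 92 to 1541 without 1 library. RB98# gave 4659 calls, 2731 to 5028 without 1 library. Readers called after the knockdown were 1, against 5 with the replicate block, 6 with the label set, 7 in set 2 alone and 1 with replicates 2 and 3 summed, and 0 to 1 without 1 library. Readers called with RB98# were 4, against 2 in DESeq2 and 0 to 4 without 1 library. Readers whose effects differed were 1, against 4 with the replicate block or replicates 2 and 3 summed and 0 to 1 without 1 library. The IGF2BP3 change after the knockdown was -1.63 to -1.32 without 1 library. Its share was -6.26 points after the knockdown and -2.54 with RB98# per length, and -10.1 to -8.08 and -3.81 to -3.05 points without 1 library. The same sums over IGF2BP2 and IGF2BP3 were used throughout, so a denominator of these genes alone gave no other value. Values that did not pass changed sign for YTHDC1 with RB98# (0.0024 without DMSO library 2, 0.057 without RB98# library 2, from -0.14 to 0.057 without 1 library), YTHDC2 after the knockdown (0.013 by totals, 0.12 without shCtrl library 1, 0.010 without shRBPMS library 2, 0.077 in set 2 alone, from -0.12 to 0.12 without 1 library), HNRNPC with RB98# (-0.086 by totals, -0.021 to 0.038 without 1 library) and RBPMS with RB98# (-0.034 to 0.24 without 1 library). Of 780 single-gene values under alternatives, 649 kept direction and side of the threshold, 90 passed newly, 32 no longer passed and 9 changed sign. The causes were not tested. In the RB98# experiment same-numbered libraries correlated at -0.0585 over 10443 genes, so they share only a number, and the block gave 4430 calls.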
